A study of Mus musculus with 30 samples.

Results

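The keratins and keratin-associated proteins of hair were followed in back skin of WT and D6-deficient mice after TPA, a phorbol ester that inflames the skin. D6 is a decoy receptor that takes up inflammatory chemokines. All probe sets whose gene symbol begins with Krtap or is 1 of 28 named genes (hair shaft and root sheath keratins, their partners and the transcription factors of the hair matrix) were taken from 45037 on the array. This gave 80 probe sets of 71 genes, of which 48 probe sets belonged to 44 Krtap genes and 32 to 27 of the named genes. Krt72 had no probe set. Female mice of the strain given as 129–C57BL/6, 8 to 12 weeks of age, received 3 applications of 50 μM TPA, 24 h apart, on shaved dorsal skin, and whole skin followed at days 1, 2, 4 and 6, counted from the last application. The day 0 mice of each genotype received acetone only, although labelled untreated. The 10 groups (WT or D6 Deficient, days 0, 1, 2, 4 and 6) each held 3 Affymetrix arrays, 1 for each mouse, so that every day is a different set of mice. The stage of the hair cycle was not in the labels, and neither the day after TPA nor the hair cycle of these sets of mice can be told apart from the other.

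Hair is made by the matrix at the base of a growing follicle. Matrix cells become the inner root sheath, which moulds the fibre and is built of its own type I and type II keratins, or the hair shaft, whose cuticle and cortex hold the hair keratins proper. In the cortex and cuticle the keratin filaments are embedded in keratin-associated proteins, small proteins rich in cysteine or in glycine and tyrosine, which cells make after the keratins themselves. Resting follicles make few of these proteins, and the whole set is switched on with each new growth phase.

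Values are log2 intensities, and differences are differences of these. The tests are limma contrasts of a fit to all 30 arrays, adjusted by the method of Benjamini and Hochberg over 36029 probe sets, after the 20% with the lowest mean were left out. A call needed more than a 3-fold change at an adjusted p under 0.05. Of the 80 probe sets, 59 were bright enough to be tested. The 21 others were 20 of the 48 Krtap probe sets and 1 of Msx2. Because the filter uses the mean over all arrays, 3 Krtap probe sets were tested only through 1 array, replicate 2 of the D6-deficient mice at day 6, and without it 56 would have passed. With the filter set on the mean over days 0, 2 and 4 only, 48 members passed, 20 of them Krtap, so that 11 of the 59 owe their test to the days on which they were high. Counts among the tested are therefore given beside counts over all 80 in a fit without the filter.

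The array medians over the tested probe sets ran from 6.53 to 6.73. The D6 gene (Ccbp2) was lower in D6-deficient mice over all days on 2 of its 3 probe sets. One differed by -1.41 (adjusted p = 1.3e-08) without overlap, at 3.30 to 3.86 against 4.15 to 5.76 in WT mice, and the other by -0.69 (adjusted p = 5.2e-05) with overlap. The third differed by -0.07 (adjusted p = 0.80). Skin of every group gave strong signals for the epidermal keratinocyte markers Krt5, Krt14, Krt1 and Krt10, with summed intensities of 17358 to 72149, and for the fibroblast collagens, with 36314 to 91205. Krt1 and Krt10 were called lower at day 4, with differences of -2.52 and -4.27 in WT mice and of -4.46 and -5.52 in D6-deficient mice. Krt5 and Krt14 were not called there. In WT mice Krt5 differed by 0.22 and Krt14 by 1.10, 1.24 and 1.30 on the probe sets of its symbol alone. In D6-deficient mice Krt5 differed by -1.15 and Krt14 by -0.13, -0.02 and -0.13. Krt1 was called higher in WT mice at days 1 (1.72) and 2 (1.87), as was a Krt14 probe set at day 2 (1.65). Of 5 skeletal muscle probe sets 3, 3, 0 and 3 were called lower at days 1, 2, 4 and 6 in WT mice and 4, 3, 2 and 4 in D6-deficient mice. Of 6 sebaceous gland probe sets 2 were called lower on each of these days in WT mice and 3, 3, 3 and 2 in D6-deficient mice. The WT calls were those of the 2 probe sets of 1 gene, Far2. Of all probe sets, 0.541% (WT day 6) to 2.04% (D6-deficient day 4) were called lower in these comparisons. In whole skin, fewer cells of a type and less RNA in each cell cannot be told apart.

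**Figure D1:**
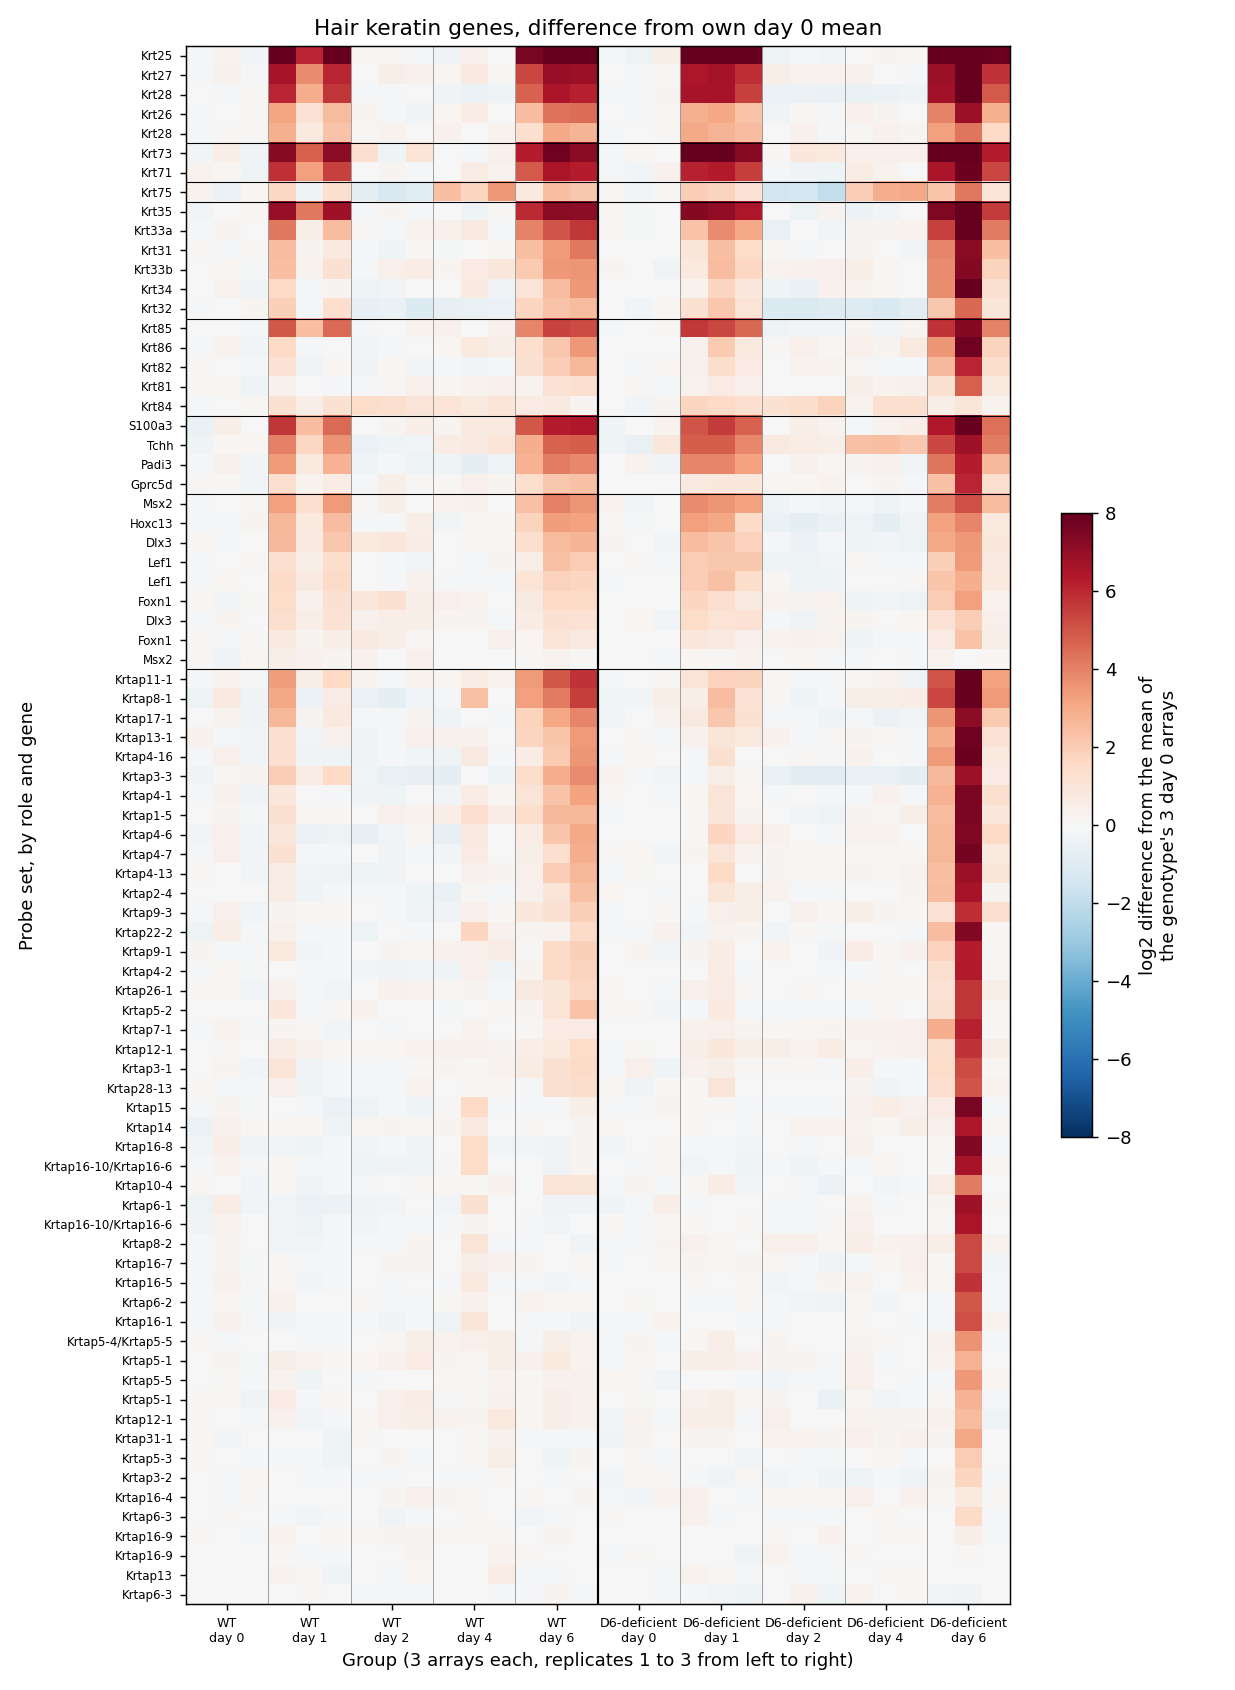
Difference of each of the 80 probe sets, grouped by role, from the mean of the 3 day 0 arrays of its genotype, on each of the 30 arrays, as log2 differences on a colour scale from -8 to 8. Red fills the inner root sheath keratins on the arrays of days 1 and 6 and is missing on those of days 2 and 4, and the Krtap block is red mainly on 1 array, D6-deficient day 6 replicate 2.

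The inner root sheath keratins and a part of the other members were higher than at day 0 on 2 of the 4 days after TPA, day 1 and day 6. The Krtap genes were called at day 6 and not at day 1, and few members were called on the days between. In WT mice limma called 16 of the 59 tested probe sets higher at day 1, where 0.93% of all probe sets were called higher, and 28 at day 6 (0.799% of all). At day 2 the count was 0 (1.2% of all), with 1 at an unadjusted p under 0.05, and at day 4 it was 1 (1.76%). In D6-deficient mice 19 were called higher at day 1 (1.06% of all), 0 at day 2 (1.7%), 2 at day 4 (1.97%) and 47 at day 6 (0.888%). Only Krt75 in D6-deficient mice at day 2 was called lower. Of all probe sets 0.835%, 0.699%, 1.48% and 0.541% were called lower in WT mice at days 1, 2, 4 and 6, and 1.43%, 1.57%, 2.04% and 1.24% in D6-deficient mice. On the adjusted p alone, without the 3-fold threshold, 1 was higher in WT mice at day 2 (11% of all), 2 at day 4 (17.3%) and, in D6-deficient mice at day 2, 1 was higher (17.5%) and 1 lower (20.6%). The spread of a probe set is taken from all 10 groups, so the wide spread of the members at day 6 also enters the tests of days 2 and 4. Over all 80 in the fit without the filter, the counts of higher probe sets at days 1 and 6 were 16 (0.742% of all) and 27 (0.635%) in WT mice and 19 (0.85%) and 52 (0.731%) in D6-deficient mice. Over the 48 that passed the filter on days 0, 2 and 4, they were 15 (0.919% of all) and 25 (0.777%) in WT mice and 18 (1.04%) and 37 (0.83%) in D6-deficient mice.

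The median difference from day 0 over all 80 probe sets was 0.28, -0.01, 0.18 and 1.23 at days 1, 2, 4 and 6 in WT mice, and 0.44, -0.03, 0.10 and 2.56 in D6-deficient mice. Over all tested probe sets these medians lay between -0.02 and 0.03. The 4 days of a genotype share their day 0 arrays and are therefore not independent of each other. All 3 arrays lay above all 3 of day 0 in 29, 8, 9 and 51 of the 80 probe sets in WT mice (16.9%, 16.8%, 22.1% and 15.9% of all probe sets) and in 45, 10, 15 and 52 in D6-deficient mice (22.5%, 21.2%, 22% and 16.4%). Without replicate 2 of the D6-deficient day 6 mice, the count there was 33 and the median 1.26. With the spread taken from the arrays of that contrast alone the count was 22, and Krt32, Krt33b, Krt34, Krt81, Krt82, Krt86, Gprc5d, Foxn1 and 4 of the named Krtap genes were among those no longer called. Without replicate 1 of the WT mice at day 1, the count there was 10 and the median 0.03.

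The inner root sheath keratins gave the clearest pattern. Krt25, a type I keratin of the sheath, lay at 3.72, 4.15 and 3.65 in WT mice at day 0, at 12.42, 9.91 and 12.16 at day 1, at 3.94, 3.93 and 3.77 at day 2, at 3.54, 4.28 and 3.83 at day 4 and at 11.40, 12.80 and 12.72 at day 6. In D6-deficient mice the arrays read 3.91, 3.68 and 4.63 at day 0, 12.52, 12.71 and 12.16 at day 1, 3.68, 3.91 and 3.87 at day 2, 4.10, 4.31 and 4.16 at day 4 and then 12.85, 13.65 and 12.00 at day 6. All 12 arrays of days 1 and 6 lay far above the 18 others. The arrays of days 2 and 4 lay between 3.54 and 4.31, close to those of day 0. Krt25 rose by 7.66 at day 1 (SE 0.46, adjusted p = 1.2e-10) and by 8.47 at day 6 (adjusted p = 1.3e-11) in WT mice, and by 8.39 (adjusted p = 2.4e-11) and 8.76 (adjusted p = 1.8e-11) in D6-deficient mice. Replicate 2 of the WT mice at day 1 was the lowest of the high arrays.

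Its type II partners of the sheath followed the same days. Krt73, which is made in the cuticle of the sheath, read 3.92, 4.70 and 3.84 in WT mice at day 0, 11.43, 8.96 and 11.30 at day 1 and then 10.43, 11.91 and 11.38 at day 6. In D6-deficient mice it read 3.91, 4.20 and 4.02, then 12.23, 12.18 and 11.35 at day 1 and then 12.16, 12.95 and 10.32 at day 6. The groups did not overlap, and Krt73 rose by 6.41 and 7.09 in WT mice and by 7.87 and 7.76 in D6-deficient mice (adjusted p of 5.0e-08 or below). Krt71, present in all layers of the sheath, rose by 4.88 (SE 0.52) at day 1 and 5.92 at day 6 in WT mice and by 6.02 and 6.57 in D6-deficient mice.

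All 7 probe sets of the sheath keratins were called at days 1 and 6 in both genotypes and none at day 2 or 4. Krt27 rose by 5.48 and 6.37 in WT mice and by 6.35 and 7.07 in D6-deficient mice at days 1 and 6. The brighter probe set of Krt28 rose by 4.89, 5.82, 6.21 and 6.53 in the same order, and the other by 1.96, 2.37, 2.75 and 3.06, so that the probe sets of this gene shared their direction but not their size. Krt26 rose by 2.27 (adjusted p = 0.0093), 3.76, 2.76 and 4.55. Without replicate 1 of the WT mice at day 1 the Krt26 call at that day was lost (1.84, adjusted p = 0.066).

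Between day 1 and day 2 the sheath keratins fell back, a comparison added after the pattern was seen. Krt25 fell by 7.62 in WT mice (SE 0.46, adjusted p = 4.1e-10) and by 8.65 in D6-deficient mice (adjusted p = 2.4e-11). Of the tested probe sets, 11 were called lower at day 2 than at day 1 in WT mice (0.119% of all were called lower) and 20 in D6-deficient mice (0.397%). With the spread taken from the arrays of that contrast alone, the WT count was 5. The mice of each day differ, so these are differences between sets of mice and not a course within a mouse.

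**Figure D2:**
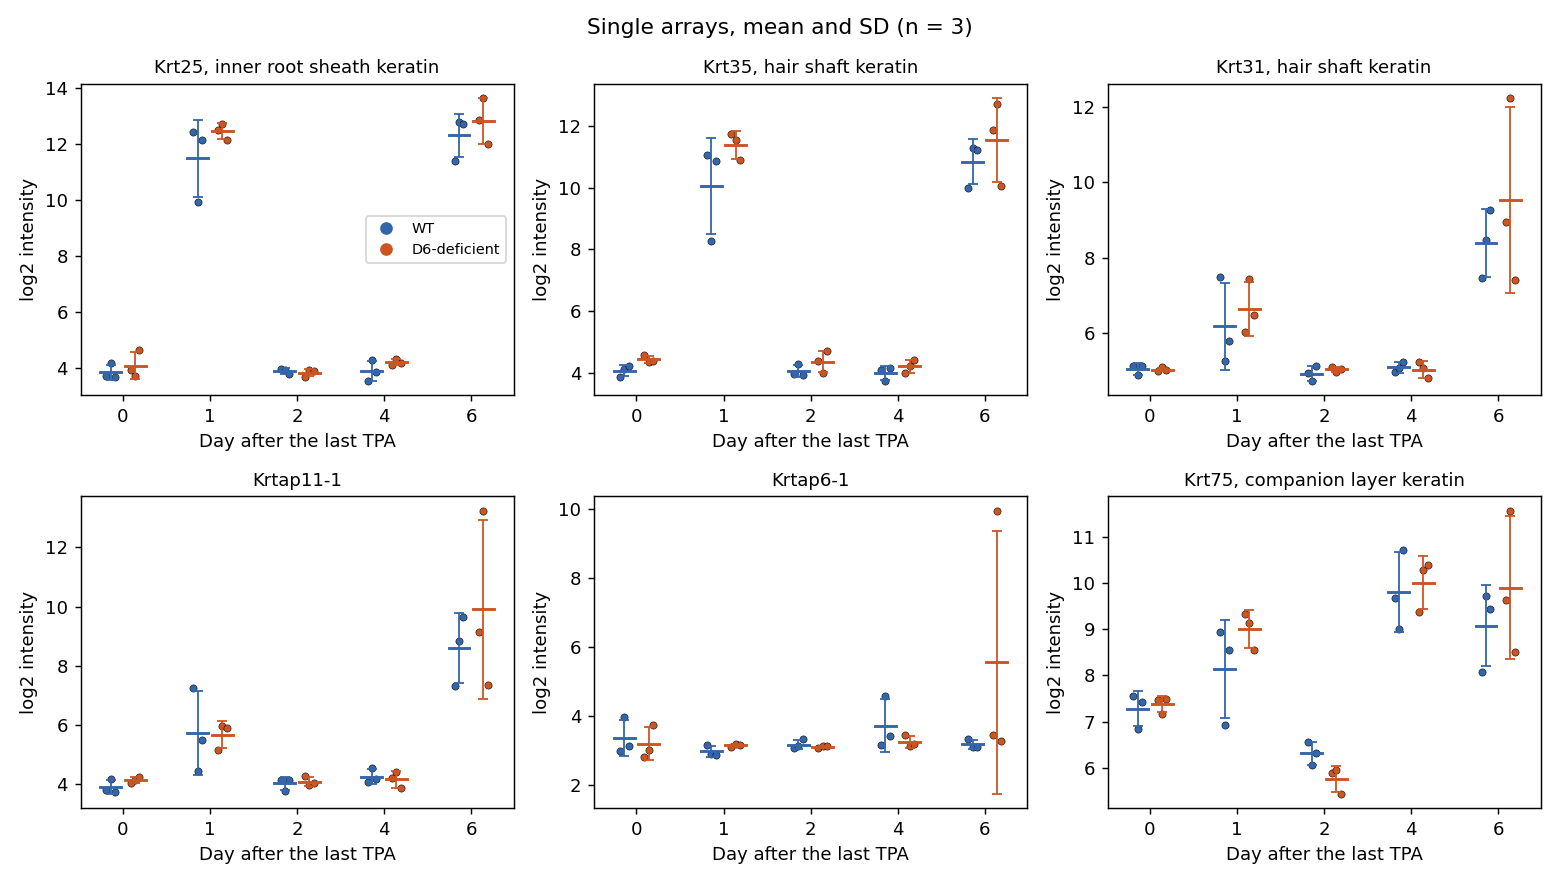
Log2 intensity by day after the last TPA for Krt25, Krt35, Krt31, Krtap11-1, Krtap6-1 and Krt75, with a point for each array and bars for the mean and SD of 3 arrays in WT (blue) and D6-deficient (orange) mice. Krt25 and Krt35 stand high at days 1 and 6, Krt31 and Krtap11-1 mainly at day 6, Krtap6-1 on 1 array, and Krt75 at days 4 and 6 of both genotypes.

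Among the hair shaft keratins, Krt35 and Krt85, a type I and a type II keratin that matrix and cuticle cells make before the others, stood apart from the rest. Krt35 read 3.86, 4.11 and 4.22 in WT mice at day 0, 11.06, 8.27 and 10.87 at day 1 and then 10.01, 11.31 and 11.24 at day 6. In D6-deficient mice it read 4.57, 4.34 and 4.38 at day 0, 11.77, 11.55 and 10.90 at day 1 and then 11.88, 12.74 and 10.05 at day 6. It rose in WT mice by 6.00 (SE 0.55, adjusted p = 6.9e-08) and 6.79 and in D6-deficient mice by 6.98 and 7.13. Its arrays of days 2 and 4 lay between 3.71 and 4.68, near those of day 0. Krt85 rose by 3.96 and 4.83 in WT mice and by 5.19 and 5.70 in D6-deficient mice.

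The keratins of the later cortex and cuticle were called mainly at day 6. Krt31, a cortex keratin, read 5.12, 4.86 and 5.12 in WT mice at day 0, 7.48, 5.26 and 5.78 at day 1 and then 7.46, 8.46 and 9.27 at day 6. In D6-deficient mice it read 4.98, 5.08 and 4.99 at day 0, 6.01, 7.42 and 6.48 at day 1 and then 8.94, 12.25 and 7.39 at day 6. All arrays of day 1 lay above those of day 0, but the difference of 1.14 (SE 0.71, adjusted p = 0.27) in WT mice and of 1.62 (adjusted p = 0.076) in D6-deficient mice did not pass. At day 6 Krt31 rose by 3.36 (adjusted p = 0.0015) and 4.51 (adjusted p = 4.5e-05).

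Of the other cortex keratins, Krt33a was called at both days, with 2.41 (adjusted p = 0.031) and 4.92 in WT mice and 3.05 and 6.28 in D6-deficient mice. Its call in WT mice at day 1 was lost when any of 5 of its arrays was left out. Krt33b rose at day 6 by 3.03 and 4.30. Krt34 rose by 4.40 (adjusted p = 0.0011) in D6-deficient mice and differed by 2.31 (adjusted p = 0.085) in WT mice. Krt86, a type II cortex keratin, likewise rose by 4.37 (adjusted p = 3.8e-04) in D6-deficient mice and differed by 2.31 (adjusted p = 0.051) in WT mice.

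The cuticle keratins Krt32 and Krt82 rose at day 6 by 2.18 and 1.95 in WT mice and by 2.57 and 3.36 in D6-deficient mice. The WT call of Krt82 (adjusted p = 0.032) was lost without any of 5 of its 6 arrays. Krt81, another cortex keratin, read 7.48, 11.01 and 7.01 in D6-deficient mice at day 6 against 6.23, 6.35 and 6.17 at day 0, a rise of 2.25 (adjusted p = 0.003) that was 0.99 and under 3-fold without replicate 2, as was that of Krt32 (1.57). In WT mice it differed by 0.93 (adjusted p = 0.25). By role, 5 of 6 type I and 2 of 5 type II shaft keratins were called at day 6 in WT mice and 6 of 6 and 4 of 5 in D6-deficient mice, against 2 and 1 at day 1 in either genotype.

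Krt84, also a type II hair keratin, had another course. In WT mice its mean lay above day 0 by 0.99 (SE 0.24, adjusted p = 0.0035), 1.26 (adjusted p = 3.3e-04), 0.97 (adjusted p = 0.0021) and 0.54 (adjusted p = 0.11) at days 1, 2, 4 and 6. In D6-deficient mice the differences were 1.54, 1.48, 0.95 and 0.59. The first 3 of each genotype passed on the adjusted p alone and none exceeded 3-fold. Its highest values thus fell on days that included day 2, when the sheath keratins were at their day 0 level. The D6-deficient arrays of day 2 read 6.38, 6.56 and 7.01, all above the day 0 arrays at 5.16, 4.95 and 5.41.

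Krt75, the keratin of the companion layer between the inner and the outer root sheath, was the only keratin of the set called at day 4. In WT mice it read 7.56, 6.84 and 7.43 at day 0, 8.95, 6.93 and 8.54 at day 1, 6.56, 6.06 and 6.31 at day 2, 9.67, 9.01 and 10.72 at day 4 and then 8.08, 9.71 and 9.44 at day 6. In D6-deficient mice it read 7.48, 7.17 and 7.49, then 9.33, 9.14 and 8.54, then 5.89, 5.95 and 5.43, then 9.36, 10.28 and 10.40, and then 9.62, 11.57 and 8.50. Every array of day 2 lay below and every array of day 4 above all day 0 arrays of its genotype.

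Krt75 rose at day 4 by 2.52 in WT mice (SE 0.57, adjusted p = 0.0011) and by 2.63 in D6-deficient mice (adjusted p = 6.6e-04), and at day 6 by 1.80 (adjusted p = 0.026) and 2.52 (adjusted p = 0.0017). At day 1 it rose by 1.62 (adjusted p = 0.029) in D6-deficient mice and differed by 0.86 (adjusted p = 0.31) in WT mice. At day 2 it fell by 1.63 in D6-deficient mice (adjusted p = 0.027), a change that was 1.56 and under 3-fold after each array was centred on its median, and it differed by -0.97 (adjusted p = 0.23) in WT mice. Leaving out single arrays of the groups compared ended the WT call at day 6 in 3 cases, the D6-deficient call at day 1 in 5 and that at day 2 in 3.

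Of the 4 partners of the keratins 3 were called at day 1 and 4 at day 6 in both genotypes. Tchh (trichohyalin), the protein that fills the cells of the inner root sheath, read 5.44, 5.96 and 5.95 in WT mice at day 0, 9.84, 7.42 and 9.35 at day 1 and then 8.68, 10.47 and 10.62 at day 6. It rose by 3.09 and 4.14 in WT mice and by 4.50 and 5.39 in D6-deficient mice. At day 4 the D6-deficient arrays read 7.67, 7.71 and 7.48 against 4.98, 4.73 and 6.18 at day 0, a rise of 2.32 (SE 0.56, adjusted p = 0.0018), whereas WT mice differed by 0.80 (adjusted p = 0.28). The difference between the genotypes in this change was 1.52 (SE 0.80, adjusted p = 0.51).

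S100a3, a calcium-binding protein of the hair cuticle, rose by 4.24 and 5.88 in WT mice and by 5.12 and 6.38 in D6-deficient mice at days 1 and 6. Padi3, the enzyme that turns arginine of trichohyalin into citrulline, rose by 2.32 and 3.58 and by 3.70 and 4.40. Its WT call at day 1 was lost without replicate 1 (1.79, adjusted p = 0.054). Gprc5d, an orphan receptor made by cells that form hard keratin, was called at day 6 alone, with 1.94 (adjusted p = 0.028) in WT and 3.26 in D6-deficient mice. Its WT call was lost without any of 5 of its 6 arrays.

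Of 8 tested probe sets of the matrix transcription factors, 3 and 4 were called at days 1 and 6 in WT mice and 5 and 6 in D6-deficient mice. Msx2, a homeobox factor of matrix cells, rose on its brighter probe set by 2.66 and 3.30 in WT mice and by 3.50 and 3.94 in D6-deficient mice at days 1 and 6, while its other, dim probe set lay between 3.00 and 3.75 on all arrays. Hoxc13, a homeobox factor that drives hair keratin genes, rose by 1.97 (adjusted p = 0.013), 2.78, 2.64 and 2.66, and the first of these calls was lost without replicate 1 or 3 of the WT mice at day 1. Dlx3, a homeobox factor of differentiating hair cells, rose by 1.84 (under 3-fold at 1.45 without replicate 1), 2.21, 2.19 and 2.46 on its brighter probe set, and its other probe set stayed under 3-fold (0.98 to 1.25). Lef1, which carries Wnt signals into the nucleus, rose on its brighter probe set in D6-deficient mice by 1.91 and 1.97 (1.49 without replicate 2) and differed under 3-fold in WT mice (1.27, adjusted p = 0.0074, and 1.56, adjusted p = 0.0018). On its other probe set it rose by 2.11 and 2.01 in D6-deficient mice and by 1.62 in WT mice at day 6. Foxn1, the gene mutated in nude mice, was called in D6-deficient mice at day 6 only (1.88, adjusted p = 0.0018), and under 3-fold without replicate 2 (1.18).

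The keratin-associated proteins were called on day 6 and not on day 1. At day 1, 0 of the 28 tested Krtap probe sets were called in either genotype. At day 6, 5 were called in WT mice (4 of 48 without the filter) and 19 in D6-deficient mice (24 of 48 without the filter). The last count was 10 of 28 without replicate 2 of that group. With the filter on days 0, 2 and 4, the day 6 counts were 4 and 12 of 20. The median difference from day 0 over the 48 was 0.02 at day 1 and 0.39 at day 6 in WT mice, and 0.19 and 2.31 in D6-deficient mice.

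Krtap11-1, of the high-sulfur class, read 3.77, 4.17 and 3.73 in WT mice at day 0, 7.24, 4.42 and 5.47 at day 1 and then 7.33, 8.85 and 9.66 at day 6. In D6-deficient mice it read 4.02, 4.12 and 4.23 at day 0, 5.14, 5.97 and 5.88 at day 1 and then 9.14, 13.25 and 7.35 at day 6. It rose at day 6 by 4.72 (SE 0.85, adjusted p = 3.7e-04) and by 5.79 (adjusted p = 2.2e-05), and all day 1 arrays lay above those of day 0 without a call. Krtap8-1, of the class rich in glycine and tyrosine, rose at day 6 by 4.31 (adjusted p = 0.0013) in WT mice, at 7.85, 8.72 and 10.07, and by 5.71 (adjusted p = 4.5e-05) in D6-deficient mice, at 9.60, 12.63 and 7.62. These 2 genes were also the only members called between days 1 and 6, in D6-deficient mice, with 4.25 (adjusted p = 0.026) and 4.31 (adjusted p = 0.034), where 0.00555% of all probe sets were called higher, and the count ran from 0 to 29 when single arrays were left out and was 0 with the arrays of that contrast alone. Same-numbered arrays of these 2 days deviated together (r of 0.336, 0.127 and 0.481), and with the replicate number as a block Krtap8-1 no longer passed (adjusted p = 0.053), while Krtap11-1 did (adjusted p = 0.036). In WT mice 0 members were called higher between these days (0.00555% of all), with 15 at an unadjusted p under 0.05 against 6.91% of all probe sets.

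The other Krtap genes called in WT mice at day 6 were Krtap17-1 (2.93, adjusted p = 0.007), Krtap3-3 (2.71, adjusted p = 0.02) and Krtap13-1 (2.45, adjusted p = 0.045). Krtap3-3 was named after its values were seen, and the call of Krtap13-1 was lost without the filter and without any of 5 of its 6 arrays. In D6-deficient mice these rose by 4.28, 3.33 and 3.96. Krtap4-16, Krtap9-1 and Krtap3-1 were called in D6-deficient mice only, with 4.01 (adjusted p = 0.0028), 2.72 (adjusted p = 0.012) and 2.29 (adjusted p = 0.011), and the last 2 were lost without replicate 2. Krtap10-4 (1.58, adjusted p = 0.035) was under 3-fold, and Krtap5-1 (1.01, adjusted p = 0.053) did not pass. For Krtap12-1 the brighter probe set differed by 0.82 (adjusted p = 0.12) and the other rose by 2.56 (adjusted p = 0.0057).

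A further group of Krtap genes was high on replicate 2 of the D6-deficient mice at day 6 and on none of the other arrays of days 1 and 6. These examples were named after their values were seen. Krtap6-1, rich in glycine and tyrosine, read 3.44, 9.96 and 3.27 in D6-deficient mice at day 6, against 3.33, 3.10 and 3.11 in WT mice at that day. Krtap15 read 4.04, 10.93 and 3.30 there, and Krtap16-8 read 3.06, 10.39 and 2.86. In each, only replicate 2 lay more than 3-fold above the day 0 mean of its genotype among the 12 arrays of days 1 and 6. Of the 48 Krtap probe sets, 23 shared this pattern, as did 3 of the 32 others, and 6 Krtap probe sets were high on none of the 12. Krtap15 was also above on a WT array of day 4 (5.09), and 22 of the 23 were above on no array of days 2 and 4.

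Krtap genes lie in clusters of near neighbours, and their probe sets can share transcripts of paralogs. Of the member genes with a promoter in the RefSeq table, 18 Krtap genes were on chromosome 16, 13 on chromosome 11 and 4 on chromosome 7, and 7 probe sets of the 80 carried more than 1 gene symbol. Promoters were read from RefSeq on GRCm38.p6 for 55 of 64 member genes with 1 symbol and 1 gene ID, giving 61 promoters. The genes were taken by name, whether or not they moved. Krtap13, Krtap16-4, Krtap16-9 and Krtap6-3, high on none of the 12 arrays of days 1 and 6, were among them. The 4 sequences printed here are the 250 bases before the start of a pair of sheath keratins, high at days 1 and 6, and of the pair of Krtap genes that limma called higher at day 6 than at day 1 in D6-deficient mice. They were chosen with those values in view and run 5′ to 3′ up to the base before the start. Capitals mark TATAAA (the TATA box), the Lef1 core CTTTGA and the Hox core TTTAT, each on either strand. On the other strand TTTAT reads ATAAA, which lies within every TATAAA.
Krt25 (chr11:99322952-99323201, minus strand): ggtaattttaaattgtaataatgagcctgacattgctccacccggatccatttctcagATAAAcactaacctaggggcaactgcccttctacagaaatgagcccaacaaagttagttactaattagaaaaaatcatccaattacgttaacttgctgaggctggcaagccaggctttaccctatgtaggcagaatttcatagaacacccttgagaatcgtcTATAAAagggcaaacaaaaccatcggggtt
Krt73 (chr15:101802361-101802610, minus strand): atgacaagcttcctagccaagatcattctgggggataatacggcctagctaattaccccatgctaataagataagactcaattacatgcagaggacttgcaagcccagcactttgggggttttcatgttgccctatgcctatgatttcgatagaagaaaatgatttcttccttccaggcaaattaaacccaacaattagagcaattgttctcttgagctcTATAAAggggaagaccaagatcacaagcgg
Krtap11-1 (chr16:89571184-89571433, minus strand): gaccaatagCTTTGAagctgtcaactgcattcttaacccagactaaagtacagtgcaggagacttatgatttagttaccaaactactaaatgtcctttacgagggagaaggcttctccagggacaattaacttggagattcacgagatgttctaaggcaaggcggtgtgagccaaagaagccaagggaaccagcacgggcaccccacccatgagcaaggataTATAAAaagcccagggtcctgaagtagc
Krtap8-1 (chr16:89487953-89488202, minus strand): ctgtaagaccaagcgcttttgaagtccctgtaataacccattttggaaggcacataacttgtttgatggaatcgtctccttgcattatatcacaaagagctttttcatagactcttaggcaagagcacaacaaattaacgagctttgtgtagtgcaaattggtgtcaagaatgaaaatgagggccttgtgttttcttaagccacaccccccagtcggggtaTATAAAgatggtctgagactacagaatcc

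Each of the 4 sequences ends with TATAAA close to the start. Forward TATAAA between 35 and 20 bases before the start stood in 26 of the 61 member promoters (42.6%) and in 1.84% of all 32851 promoters in the table. On either strand and anywhere in the window of 250 bases before to 50 after the start, it stood in 68.9% of member promoters and in 13.6% of all. By role, 28 of 36 Krtap promoters (77.8%) and 11 of 12 hair and sheath keratin promoters (91.7%) held it, and 1 of 6 promoters of the transcription factors. CTTTGA stood in 29.5% of member promoters and 16% of all. TTTAT stood apart from TATAAA in 47.5% and 33.5%. The members include neighbouring paralogs, so these shares are not those of independent genes.

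**Figure D3:**
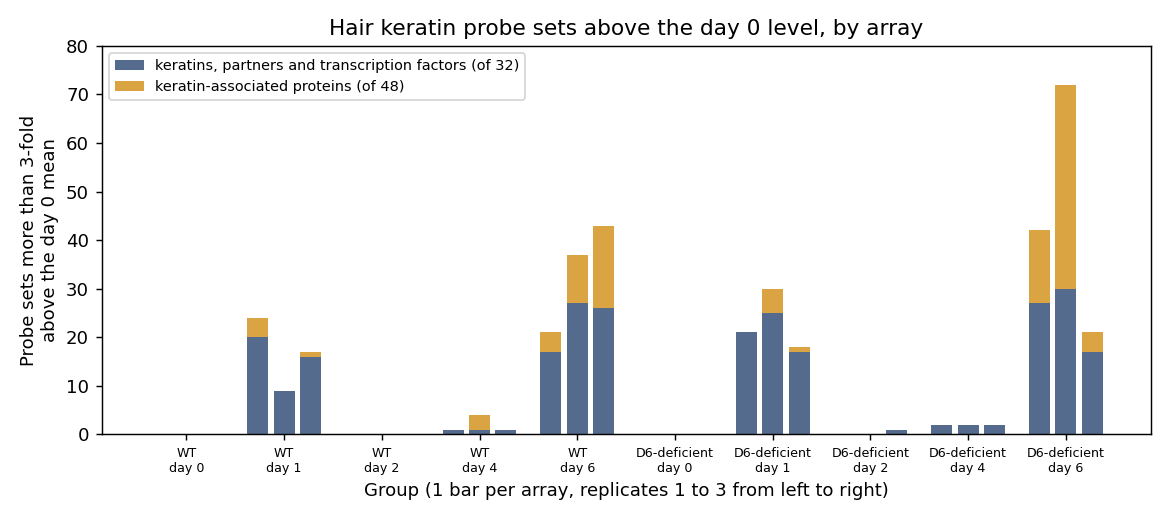
Number of the 80 probe sets more than 3-fold above the day 0 mean of their genotype on each of the 30 arrays, stacked as the 48 Krtap probe sets and the 32 others. Days 0 and 2 stand at 0 or 1, day 4 at 1 to 4, and replicate 2 of the D6-deficient mice at day 6 reaches 72, of which 42 are Krtap.

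The arrays of a group differed in how much of the set was high. In WT mice at day 1, 24, 9 and 17 probe sets lay more than 3-fold above the day 0 mean on replicates 1, 2 and 3, and at day 6 the numbers were 21, 37 and 43. In D6-deficient mice they were 21, 30 and 18 at day 1 and 42, 72 and 21 at day 6. The Krtap probe sets among them numbered 4, 0 and 1 and 4, 10 and 17 in WT mice, and 0, 5 and 1 and 15, 42 and 4 in D6-deficient mice. On days 2 and 4 no array had more than 4. The share of all probe sets above 3-fold was not counted on single arrays. These and the other counts by single array therefore have no background beside them.

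In all, 9 probe sets were above on all 12 arrays of days 1 and 6, those of the sheath keratins Krt25, Krt27, Krt71 and Krt73 and the brighter probe set of Krt28, with Krt35, Krt85, S100a3 and Tchh. None was a Krtap gene. Another 26 were above only on replicate 2 of the D6-deficient mice at day 6, of which 23 were Krtap, and 7 on none of the 12. On at least 1 array of day 2 or 4, 6 of the 80 were above, again without a share over all probe sets.

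**Figure D4:**
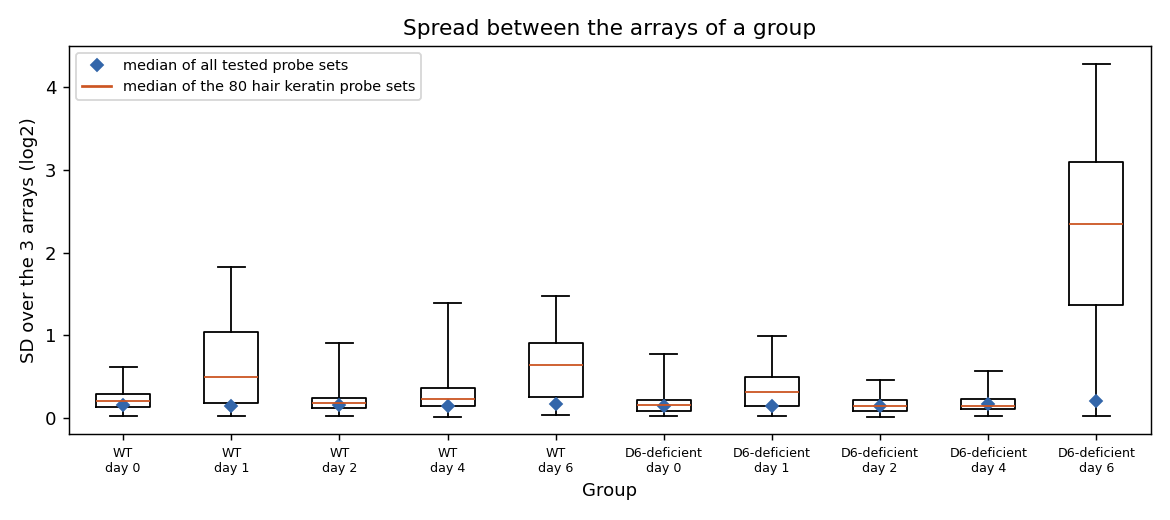
SD over the 3 arrays of each of the 10 groups, in log2 units, for the 80 probe sets (boxes with quartiles and median, whiskers from lowest to highest), with diamonds at the median over all tested probe sets. The boxes lie near the diamonds at days 0, 2 and 4 and above them at days 1 and 6, furthest in D6-deficient mice at day 6.

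The spread followed the days on which the set was high. At days 0, 2 and 4 the median SD over the 80 probe sets lay between 0.14 and 0.22, against 0.14 to 0.17 over all tested probe sets. At day 1 WT mice had 0.50 and D6-deficient mice 0.31, and at day 6 these were 0.64 and 2.34, against 0.17 and 0.20 over all tested. Pooled over the 10 groups it was 0.85 against 0.19, and 0.43 without replicate 2 of the D6-deficient mice at day 6. That replicate was the highest of its group in 77 of the 80 probe sets and replicate 3 the lowest in 71. In WT mice at day 1, replicate 1 was the highest in 69 and replicate 2 the lowest in 59.

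The genotypes were compared next, at day 0 directly and later after subtracting the day 0 mean of each genotype. limma called 0 of the 59 tested probe sets in any of these 5 contrasts, and 0 had an unadjusted p under 0.05, where 14.3%, 9.7%, 16.9%, 11% and 8.01% of all probe sets did at days 0, 1, 2, 4 and 6. Of all probe sets, 0.122% were called at day 0 and 0.00278%, 1.11%, 0.153% and 0.00278% at days 1, 2, 4 and 6. The lowest adjusted p of a member was 0.67, 0.58, 0.49, 0.51 and 0.65. The fit takes the spread of a probe set from all 10 groups, so the wide spread of the members at day 6 enters the other days. Their median SD was 0.85 when pooled, against 0.14 to 0.22 at days 0, 2 and 4. The members and all probe sets are therefore not compared on a like footing in these shares. By the methods' t-test, at an unadjusted p under 0.05 and more than 3-fold, the counts were 0 as well, except for 1 at day 4. After adjustment by Benjamini and Hochberg that count was 0 too. Over all tested probe sets the unadjusted t-test gave 55, 108, 468, 169 and 66 at days 0, 1, 2, 4 and 6, and the adjusted one 1, 2, 268, 5 and 0.

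The size of the difference was not well bounded at day 6. The median over the 80 was 1.14, with D6-deficient mice higher, and it ran from -0.06 without replicate 2 of the D6-deficient mice to 2.01 without their replicate 3. Krt25 differed by 0.29 (SE 0.65), Krt31 by 1.15 (SE 1.00), Krt34 by 2.09 (SE 1.35) and Krtap8-1 by 1.40 (SE 1.27). At day 6 the arrays of the 2 genotypes overlapped in all 80 probe sets, where 3.67% of all probe sets were higher in every D6-deficient array and 5.74% lower. The absence of a call does not show that the genotypes were alike.

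Compared on the same day without the subtraction of day 0, 13 members at day 1 and 7 at day 6 were higher in D6-deficient mice at an unadjusted p under 0.05, where 8.01% and 8.37% of all tested passed in either direction. limma called 0 of them (0.0139% and 0.0167% of all were called), with lowest adjusted p values of 0.51 and 0.40. Those of day 1 included Krt35 (1.34), Krt73 (1.36), Krt71 (1.17) and Krt25 (0.96), and replicate 2 of the WT mice at day 1 had the lowest value of its group in all 4.

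**Figure D5:**
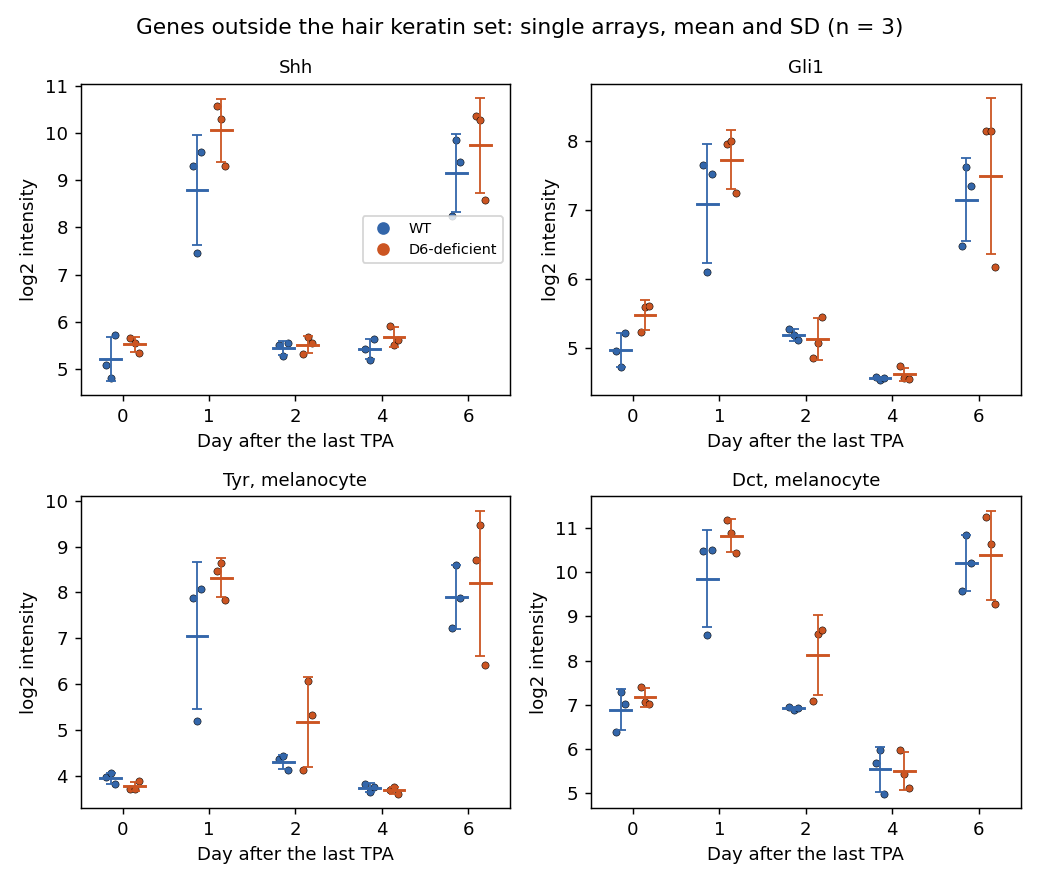
Log2 intensity by day after the last TPA of Shh, Gli1, Tyr and Dct, which are not hair keratins, with a point for each array and the mean and SD of 3 arrays in WT (blue) and D6-deficient (orange) mice. All 4 stand high at days 1 and 6 and near or below day 0 at day 4. They were picked from longer lists after their values were seen.

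Other genes of the follicle were read from a list of 51 probe sets, 46 of them tested. The list is not limited to genes of the growth phase and includes genes of the bulge such as Krt15. Shh, Gli1 and Krt15 were named from it after their values were seen. Called higher at days 1, 2, 4 and 6 were 6, 2, 0 and 4 in WT mice and 4, 0, 2 and 4 in D6-deficient mice. Called lower were 0, 1, 2 and 0 in WT mice and 2, 5, 6 and 1 in D6-deficient mice. The shares of all probe sets called are those given with the first counts of the hair keratins, between 0.541% and 2.04%, and hold for the melanocyte and proliferation markers too. Shh, the signal that matrix cells send, had means of 5.20, 8.79, 5.44, 5.42 and 9.16 over days 0 to 6 in WT mice and of 5.52, 10.06, 5.51, 5.67 and 9.74 in D6-deficient mice. It rose by 3.60 (adjusted p = 6.9e-06) and 3.97 in WT mice and by 4.54 and 4.23 in D6-deficient mice. Gli1, a target of that signal, rose by 2.13, 2.18, 2.25 and 2.01 in the same order. Krt15, a keratin of the basal layer and the bulge that is not a hair keratin, was instead lower at day 4, with differences of -2.83 (WT) and -4.02 (D6-deficient).

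Melanocyte markers moved on the same days as the hair keratins. Of 12 probe sets, 11 were tested, and in WT mice 8 were called higher at day 1 and 8 at day 6. In D6-deficient mice 9 were called on each of these days, and in neither genotype was any called higher at day 2 or 4, where 2 were called lower in D6-deficient mice at day 4. Their summed intensity ran from 406.5 to 613.4 in WT mice at day 0, from 1538 to 5667 at day 1, from 552.6 to 580.1 at day 2, from 322.2 to 374.6 at day 4 and from 2871 to 6895 at day 6. In D6-deficient mice the ranges were 502.7 to 603.6, 4843 to 8678, 572.2 to 1587, 319.5 to 381.9 and 2078 to 8566. The day 1 and day 6 arrays lay above all others in both genotypes, and the defining enzymes of pigment, Tyr and Dct, rose by 3.11 and 2.96 in WT mice at day 1. The other tested probe set of Tyr differed there by 1.12 (adjusted p = 0.039), under 3-fold. Tyr and Dct were named after their values were seen.

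The 3 D6-deficient arrays of day 6 differed in another way in these markers. Summed over the 80 hair keratin probe sets they read 40391, 170344 and 15661, with replicate 2 far above replicate 1. Summed over the melanocyte probe sets they read 8566, 7951 and 2078, so that replicate 2 was not above replicate 1. Summed over 3 neutrophil probe sets (Ngp, S100a8 and S100a9) they read 9906, 22472 and 6702, highest on replicate 2. This sum mixes genes that did not move alike. In WT mice at day 1 S100a8 and S100a9 rose by 4.05 and 4.03, while Ngp differed by 1.04 (adjusted p = 0.39). Of 9 probe sets of proliferating cells, 5 were called at days 1, 2 and 6 and 1 at day 4 in WT mice, and 4, 3, 0 and 5 at days 1, 2, 4 and 6 in D6-deficient mice. The part of these cells, and of the muscle, sebaceous and epidermal cells, in the hair keratin values was not tested.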

How the data were processed

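RNA of whole back skin was hybridised to Affymetrix mouse arrays, 30 in all. The authors summarised the probes by RMA in GeneSpring GX, with background correction and quantile normalization, and deposited linear intensities, of which log2 was taken here. The genome build was not given in the sources used here. Before any fit, 64 control probe sets were left out, which leaves 45037. The methods' filter of the lowest 20% was applied. limma 3.58.1 (R 4.3.3) was fitted with 1 mean per group, lmFit and eBayes. The adjusted p values are those of this fit unless another is named, and values between arrays of a group are SDs of 3. Each array is 1 mouse, and with 3 against 3 an exact permutation test cannot give a p under 0.1. Single values ran from 2.26 to 14.98, and the number of arrays limits the precision.

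The members and lists were chosen with earlier results of these data known. Named were every gene outside the Krtap family by its probe set of highest mean, the 10 Krtap genes of highest mean, and the 5 largest changes in each direction among those called in a contrast; other names are said to be chosen after their values were seen. The alternatives were no filter, no fold threshold, a replicate block and centring of each array. Others were the set of hybridization controls (17 and 13 arrays) as a covariate and the arrays of a contrast alone. The last were the unpaired t-test of the methods, called on its unadjusted p, and leaving out single arrays. Contrasts between days 1 and 2 or 6, and the filter on days 0, 2 and 4 alone, were added after seeing the data. The procedure was tested on simulated data of this design. There 89.5% (the genotype difference at day 6) to 100% (that at day 0) of changes of 2 on the log2 scale were recovered among 36029 probe sets. The changes were planted in probe sets drawn at random, with the same spread in all groups, and recovery was counted on the adjusted p alone. The hair keratin probe sets spread more (median pooled SD 0.85 against 0.19 over all tested), so these rates do not hold for them. Python 3.11.15, numpy 2.4.6, pandas 2.3.3 and matplotlib 3.10.9 were used for the rest. Symbols of 76 of the 80 probe sets were matched by Entrez ID, and 10 have a newer symbol; the array's names are kept. Promoters and their positions are from RefSeq on GRCm38.p6. Protein sequences were not used here.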

Additional observations from a re-analysis of the deposited data

How the results depend on the processing

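For the 94 called values of named genes, 1144 of 1215 alternative values stayed past the threshold and 71 kept their direction without passing it. That no direction reversed is not a test of direction. The 94 were chosen for exceeding 3-fold, and several of the alternatives keep the same group means. Without a fold threshold the counts were 1 and 2 in WT mice at days 2 and 4 and 2 in D6-deficient mice at day 2. With each array centred on its median, the count of lower probe sets in D6-deficient mice at day 2 was 0, and the medians were 0.036 and 0.207 at days 2 and 4 in D6-deficient mice. With the arrays of the contrast alone the count was 22 in D6-deficient mice at day 6, 5 in WT mice from day 1 to day 2 and 0 in D6-deficient mice from day 1 to day 6. The methods' t-test, called on its unadjusted p and more than 3-fold, gave 22 in D6-deficient mice at day 6 and 1 for the genotype difference at day 4. It gave 2 in WT mice from day 1 to day 6 and 0 in D6-deficient mice from day 1 to day 6. After adjustment by Benjamini and Hochberg the 22 fell to 6 and the 1 to 0. In WT mice the t-test counts fell from 15 to 4 at day 1 and from 32 to 0 at day 6, and in D6-deficient mice at day 1 from 21 to 19. Counts over all tested probe sets fell on adjustment too. In D6-deficient mice they fell from 886 to 828 at day 1 and from 681 to 250 at day 6. In WT mice they fell from 622 to 349 at day 1 and from 481 to 0 at day 6. For the genotype difference at day 4 the fall was from 169 to 5. Over the probe sets that passed the filter, the medians were 0.73 and 1.95 in WT mice at days 1 and 6, 0.96 in D6-deficient mice at day 1 and -0.85 there from day 1 to day 2. The cause of these shifts was not tested.

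Same-numbered arrays of a genotype deviated together, with all 3 correlations over 0.1, in 2 of 20 pairs of groups, D6-deficient mice at days 1 and 6 and at days 1 and 2. Over all pairs 16 of 60 correlations were over 0.1 (from -0.35 to 0.48), and 14 of 30 arrays correlated best with their own number. Nothing in the labels says what a number shares. With the replicate number as a block, the count in D6-deficient mice from day 1 to day 6 was 1, 29 were called in WT mice at day 6, and the count in D6-deficient mice from day 1 to day 2 stayed at 20.

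When single arrays were left out, the counts ran from 10 to 17, 0 to 0, 1 to 1 and 22 to 32 in WT mice at days 1, 2, 4 and 6, and from 18 to 21, 0 to 2, 2 to 2 and 33 to 52 in D6-deficient mice. They ran from 9 to 15 and 19 to 20 from day 1 to day 2 in WT and D6-deficient mice and from 0 to 29 from day 1 to day 6 in D6-deficient mice, and stayed at 0 from day 1 to day 6 in WT mice and in the genotype contrasts. The medians ran from 0.03 to 0.42, -0.07 to 0.05, 0.09 to 0.24 and 0.90 to 1.67 in WT mice and from 0.26 to 0.59, -0.04 to 0.00, 0.07 to 0.13 and 1.26 to 3.57 in D6-deficient mice. For the genotype difference they ran from -0.08 to 0.02 at day 0 and from 0.07 to 0.49, -0.09 to 0.01, -0.16 to -0.02 and -0.06 to 2.01 later. Between days 1 and 2 they ran from -0.40 to -0.03 and -0.52 to -0.29, and between days 1 and 6 from 0.25 to 1.14 and 0.14 to 2.53. The pooled SD ran from 0.427 to 0.874.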
